A study of Mus musculus with 4 samples.

Results

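Long noncoding RNA (lncRNA) genes are transcribed into RNAs that are often spliced and polyadenylated like mRNA but are not known to be read into a conserved protein. Some build structures in the nucleus, some are host genes that release small nucleolar RNAs or microRNAs from their introns or exons, and many lie antisense to, or share a promoter region with, a coding gene. In macrophages, lncRNAs are known both as targets of Toll-like receptor signalling and as regulators of inflammatory genes. Their levels were followed here in mRNA sequencing libraries from 4 groups, with 1 library in each. Marrow cells from the bones of wild-type C57BL/6 mice had been grown in DMEM with fetal bovine serum and supernatant of L929 cells, which supplies the macrophage growth factor M-CSF. They were left unstimulated or were given Pam3Cys4 at 100 nM (for 5 h according to the titles), a synthetic lipopeptide sensed by the receptor pair TLR1 and TLR2. Each of these conditions was read in cells without shRNA and in cells with an shRNA directed at lncRNA-COX2, itself an inducible lncRNA. Sample titles mark the cells without shRNA as EV, an abbreviation left unexplained, so whether they held a control construct is not given. The level of the targeted RNA was not analysed here.

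A gene was taken as an expressed lncRNA gene when GENCODE vM21 gave its Ensembl ID a lncRNA type and at least 1 library held 1 CPM (reads of the gene per 1000000 gene reads) or more. Of 37681 gene rows, 3100 were of such a type. Of these, 1888 had no read in any library and 1067 had reads but stayed under 1 CPM everywhere, which left 145 genes among 11993 genes of all types that passed the same level. The 145 comprised 50 processed transcripts, 47 antisense genes, 40 lincRNAs (lncRNAs that lie between genes), 5 genes that share a promoter region with another gene, 2 sense intronic genes and 1 sense overlapping gene. The genes were chosen by their CPM in these same 4 libraries, so their levels are given as a description. A gene that passed in 1 library only, as 27 did, had to differ between libraries. Just inside the threshold, by highest CPM, were Gm15726 (1.027), Tnfsf13os (1.033), Gm12404 (1.039) and Junos (1.076). Just outside were BC018473 (0.993), 4930597O21Rik (0.981), Gm16278 (0.972) and Gm12743 (0.971).

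The noncoding label did not hold for every gene. RefSeq lists 109 of the 145 as lncRNA, 2 as transcribed pseudogenes and 14 as protein-coding, and 20 had no RefSeq match. Among the 14 are Ifi30, a lysosomal thiol reductase, Cct6a, a subunit of the chaperonin that folds cytosolic proteins, Zswim6, Trerf1, Tmem134, Spata5l1 and Zfp469. In the GENCODE annotation 72 of the 145 overlapped the body of a coding gene, 63 of them at an exon. The strand setting of the counting is not given in the sources used here, so for these genes reads of the lncRNA and of the coding gene on the other strand cannot be told apart.

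Sequencing depth was 47385277 gene reads in the unstimulated and 51979051 in the Pam3Cys4 library of cells lacking the shRNA, and 65826838 and 59400238 in the matching pair that had it. The 4 values given for a gene below follow this order: no shRNA unstimulated, no shRNA with Pam3Cys4, shRNA unstimulated, shRNA with Pam3Cys4. Macrophage markers summed to 5890 to 8462 CPM, with 9 of 10 at 1 CPM or more. The summed granulocyte, B cell, T and NK cell, erythroid, mast cell and stromal markers stayed under 1 CPM, with none of those genes reaching 1 CPM, while 2 of 3 megakaryocyte markers (summed level 0.929 to 4.43 CPM) and 2 of 4 dendritic cell markers (0.33 to 2.3 CPM) did. The gene Ptgs2 beside the targeted lncRNA had 706, 43316, 340 and 16693 reads, with both stimulated libraries far above both unstimulated ones. The Y-linked genes Ddx3y (3, 4, 921 and 1116 reads), Kdm5d (0, 1, 730 and 665) and Uty (1, 0, 320 and 334) were read in the shRNA pair and almost not in the pair without shRNA, while Eif2s3y, also Y-linked, had at most 6 reads in any library. Xist, the lncRNA that coats the inactive X chromosome, had 0, 2, 0 and 1 reads and its antisense partner Tsix none. The pairs with and without shRNA thus differed in Y-linked transcripts too, and in every shRNA ratio below the shRNA and whatever else differed between the pairs cannot be told apart.

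The expressed lncRNA genes were few and mostly low. They took 0.246, 0.23, 0.235 and 0.185% of gene reads. The median of their highest level was 2.95 CPM, against 34.2 CPM over all 11993 genes, and 96 of the 145 never reached 5 CPM. At 1 CPM or more were 124, 119, 101 and 94 of them in the 4 libraries, and 81 were so in all 4. Levels per gene and ratios are from here on given after scaling the libraries with trimmed mean of M values (TMM) factors. By level per kilobase of exon, which allows genes of different length to be compared, the first was Ifi30 with 323, 195, 274 and 171 CPM per kb. Snhg9, a short host gene of a small nucleolar RNA, followed with 99.3, 68.9, 239 and 84.9 CPM per kb, then Gm17201 (highest 130), an antisense gene at an exon of Ankrd52, and Cct6a (highest 109). The next were Malat1 (highest 79.2), 2410006H16Rik (46.3), 1110038B12Rik (37.3), 1810058I24Rik (26.8), Spata5l1 (25), Tmem250-ps (22.4), Neat1 (21.2) and Zswim6 (21.1). Of these 12, RefSeq gives 6 as protein-coding: Ifi30, Cct6a, 1810058I24Rik, Spata5l1, Tmem250-ps and Zswim6.

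Malat1 and Neat1, neighbours in the genome and the classic nuclear lncRNAs, together held 22.6, 28.4, 33.8 and 29% of all reads of the 145 genes. Malat1 (ENSMUSG00000092341), which is retained in nuclear speckles where splicing factors gather, had 15331, 11758, 36865 and 17258 reads, or 294, 233, 553 and 314 CPM after scaling the libraries with the TMM factors. It was highest in the unstimulated library with shRNA, 1.88-fold above the unstimulated library without (95% interval 1.85 to 1.92). These intervals, here and below, cover counting error only, since there was 1 library per group and no replicate check. After Pam3Cys4 it was 1.26-fold lower without shRNA (1.23 to 1.29) and 1.76-fold lower with shRNA (1.73 to 1.79). Neat1 (ENSMUSG00000092274), the scaffold of paraspeckles, nuclear bodies that hold back certain RNAs and proteins, had 11005, 22205, 15424 and 14641 reads, or 211, 440, 231 and 267 CPM. Its high library was the stimulated one without shRNA, while the other 3 lay close together. Its Pam3Cys4 ratio was 2.08 without shRNA (2.03 to 2.13) and 1.15 with shRNA (1.13 to 1.18). With library totals in place of TMM factors the first of these ratios was 1.84, under the 2-fold threshold.

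**Figure D1:**
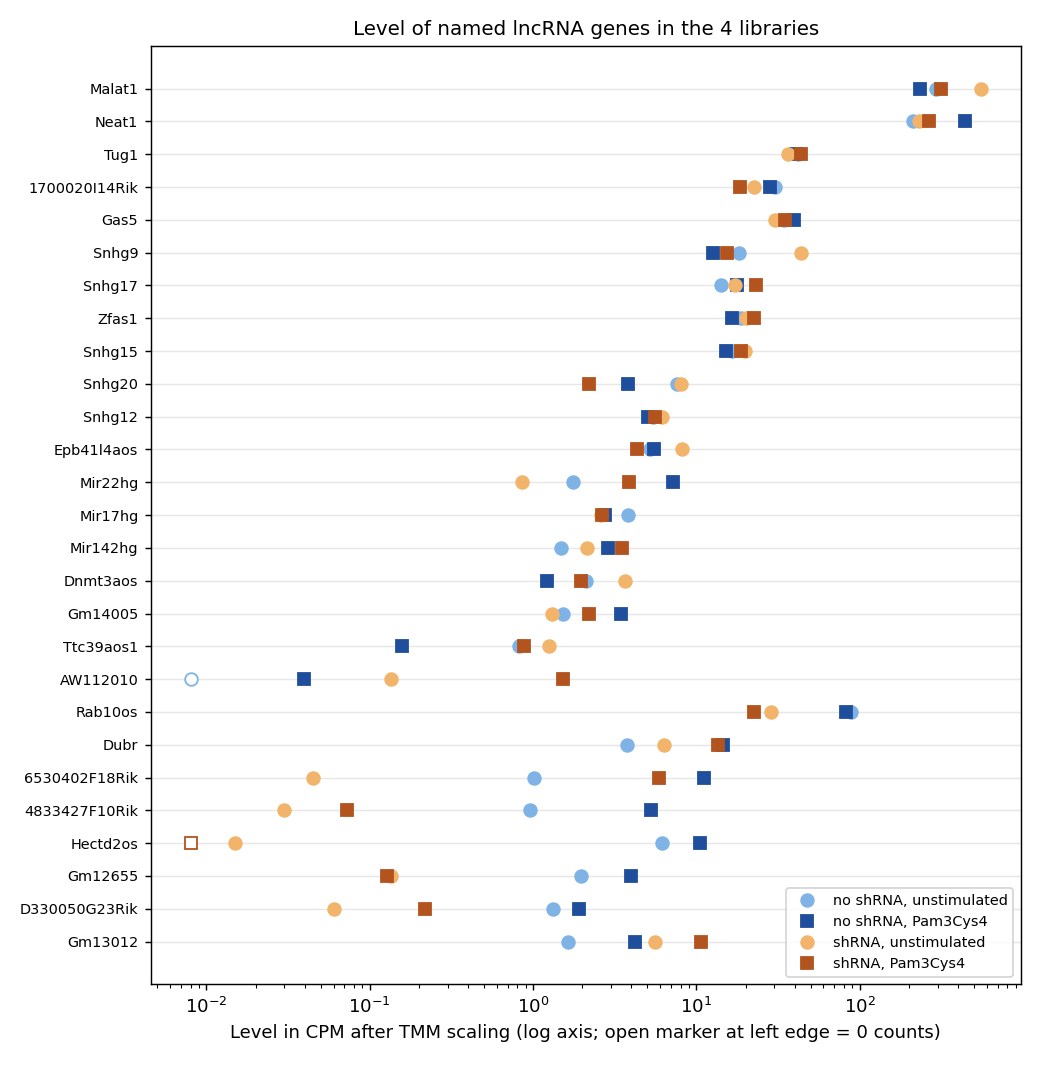
Level of 27 named lncRNA genes in each of the 4 libraries, in CPM after TMM scaling on a log axis. Circles are unstimulated and squares Pam3Cys4 libraries, blue without and orange with shRNA, and an open marker at the left edge stands for 0 reads. Malat1 and Neat1 lie between 211 and 553 CPM, the host genes Gas5, Snhg15 and Snhg12 have all 4 libraries close together, and Hectd2os and 4833427F10Rik have both shRNA libraries far to the left.

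After Pam3Cys4, lncRNA genes differed in both directions, among them 6530402F18Rik, A430093F15Rik, Gm15832 and Mir22hg, higher in both shRNA states, and Gm15513 and Gm16295, lower in both. The call of a 2-fold difference required a ratio of scaled counts of at least 2 or at most 0.5 with an exact 95% interval that excluded 1. Without shRNA, 21 of the 145 were at least 2-fold higher after Pam3Cys4 (14.5%, against 8.25% of all genes) and 14 were lower (9.66%, against 7.77%). With shRNA, 18 were higher (12.4%, against 7.25%) and 11 lower (7.59%, against 4.96%). The median log2 ratio of the 145 was -0.03 and -0.02, beside 0.00 and 0.01 for all genes. With library totals as the scale, the split without shRNA became 14 higher and 19 lower and the split with shRNA 16 and 17, so the excess of higher over lower genes depended on the scaling. The lower genes were mostly of low level: of the 49 genes with 5 CPM or more in some library, 10 were higher and 0 lower without shRNA and 6 and 2 with it. Of the genes with 1 CPM or more in both libraries compared, 13 were higher and 2 lower of 108 without shRNA, and 5 and 2 of 83 with it. The filter on level chose these genes and all genes alike, and the counts describe them.

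Most lncRNA genes were low, and genes of low level were more often 2-fold apart. Among the 113 lncRNA genes with a highest level under 10 CPM, 13.3% were higher and 12.4% lower after Pam3Cys4 without shRNA, and 13.3% and 8.85% with shRNA. Among the 2250 coding genes with a highest level of 1 to 10 CPM the shares were 9.91% and 13.4% without shRNA, and 9.11% and 10.2% with shRNA. The lower shares of the lncRNA genes were thus near those of coding genes of like level, and none of these differences was tested.

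**Figure D2:**
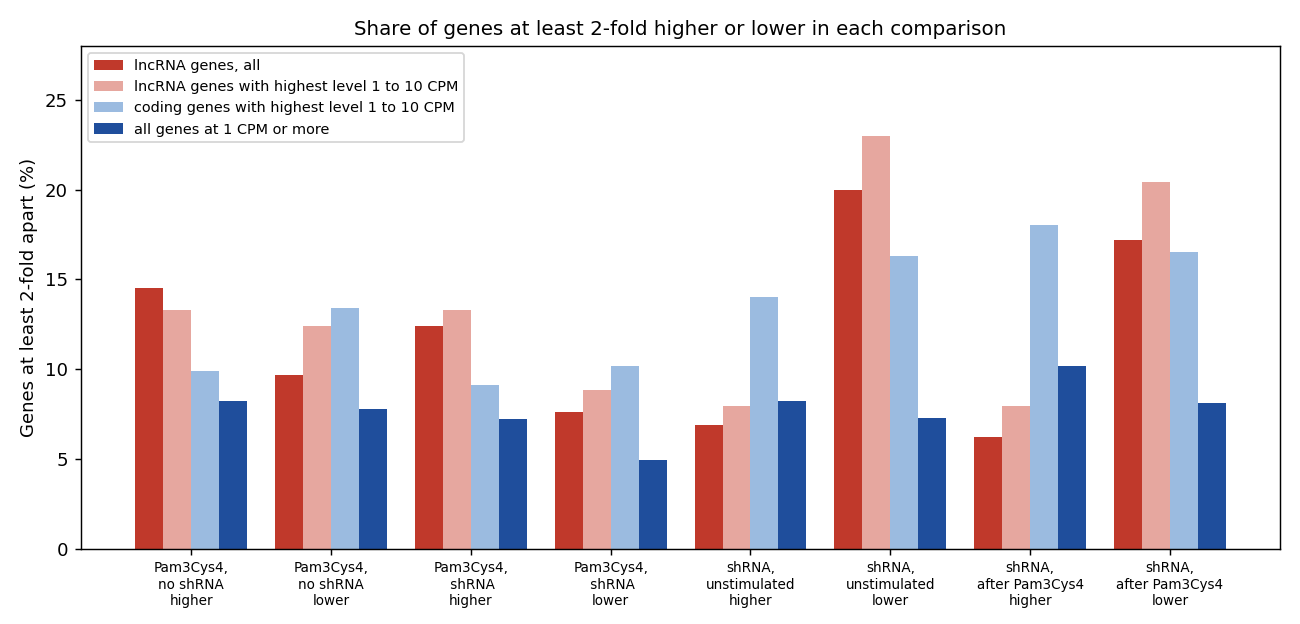
Share of genes at least 2-fold higher or lower in each of the 4 comparisons, in percent. Red bars are the 145 lncRNA genes, pale red the 113 of them under 10 CPM, pale blue the 2250 coding genes at 1 to 10 CPM and dark blue all 11993 genes. The tallest red bar is 20% lower with shRNA in unstimulated cells, and in both shRNA comparisons the red bars for higher stand below the pale blue ones.

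Of the genes higher after Pam3Cys4, 12 were so in both shRNA states, 57.1% of the 21 and 66.7% of the 18. Of the lower ones, 6 were shared, 42.9% of the 14 and 54.5% of the 11, and none was called in opposite directions. Over the 141 genes with both ratios, the log2 ratios had a Pearson coefficient of 0.74 and a Spearman coefficient of 0.67. These coefficients are a description, and the points share their libraries' depth and scaling.

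The largest Pam3Cys4 ratio in both shRNA states was that of 6530402F18Rik (ENSMUSG00000079499), a lncRNA that overlaps Ntng2, the gene of the cell surface protein netrin-G2. It had 53, 564, 3 and 324 reads, or 1.02, 11.2, 0.045 and 5.9 CPM, with both stimulated libraries above both unstimulated ones. It was 11-fold higher after Pam3Cys4 without shRNA (8.28 to 14.8), and 131-fold with shRNA (44.5 to 639), where the unstimulated library had only 3 reads. In edgeR's quasi-likelihood test of an additive model over all 4 libraries it rose with stimulation (log2 4.41, adjusted p 0.0154). Ntng2 had 3, 125, 0 and 96 reads, the same order of libraries at lower counts, and reads of the overlapping pair cannot be told apart. 4833427F10Rik (ENSMUSG00000092171), a lincRNA whose nearest coding gene is Ier3, an early response gene of NF-kB signalling, had 50, 268, 2 and 4 reads. Without shRNA it was 5.53-fold higher after Pam3Cys4 (4.08 to 7.64), and with shRNA both libraries were near 0. Ier3 itself had 2312, 22721, 1383 and 8452 reads and was 10.1-fold and 7.42-fold higher after Pam3Cys4. It responded in both shRNA states, while the lincRNA, 40997 bases from it in the annotation, was readable in 1.

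Promoter sequences of some inducible genes are shown because kappa B, interferon and AP-1 elements are the known entry points of Toll-like receptor signalling at promoters. They come from RefSeq on GRCm38.p6, run from 250 bases before to 50 after the annotated start and are written along the gene's strand, with a kappa B consensus match in capitals. AW112010 is an inducible transcript described below, and no kappa B match was found for 4833427F10Rik. The sequences shown include every inducible gene with a kappa B match. Mir22hg, an inducible host gene described below, had no match to any of these elements, and its sequence is not shown.
6530402F18Rik, chr2:29252944-29253243, minus strand: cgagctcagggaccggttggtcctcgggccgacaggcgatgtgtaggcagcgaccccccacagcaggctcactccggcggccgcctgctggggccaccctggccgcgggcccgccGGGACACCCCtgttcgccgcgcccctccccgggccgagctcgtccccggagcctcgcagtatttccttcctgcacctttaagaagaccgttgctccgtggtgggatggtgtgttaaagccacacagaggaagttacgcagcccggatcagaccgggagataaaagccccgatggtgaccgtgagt
AW112010, chr19:11050517-11050816, minus strand: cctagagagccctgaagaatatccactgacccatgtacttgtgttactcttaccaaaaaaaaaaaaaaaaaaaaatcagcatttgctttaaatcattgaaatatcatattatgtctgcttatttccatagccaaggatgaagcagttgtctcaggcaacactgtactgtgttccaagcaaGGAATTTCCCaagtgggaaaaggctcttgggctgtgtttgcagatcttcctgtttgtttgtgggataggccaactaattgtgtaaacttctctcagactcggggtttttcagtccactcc
4833427F10Rik, chr17:35772200-35772499, plus strand: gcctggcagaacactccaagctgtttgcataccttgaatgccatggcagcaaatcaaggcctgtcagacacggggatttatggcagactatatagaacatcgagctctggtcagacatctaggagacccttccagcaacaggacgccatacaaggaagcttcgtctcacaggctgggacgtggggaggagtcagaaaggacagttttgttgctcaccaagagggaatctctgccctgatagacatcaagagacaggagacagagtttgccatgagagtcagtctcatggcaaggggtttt
The kappa B match of 6530402F18Rik started 135 bases before the annotated start and that of AW112010 70 bases before it. On both strands, the kappa B consensus was found in 2 of 25 promoters (8%) of the 19 genes with a RefSeq promoter that were at least 2-fold higher after Pam3Cys4 in 1 or both shRNA states. It was found in 4.17% of the 120 promoters of the 96 matched lncRNA genes and in 4.51% of all 32851 promoters. For the AP-1 site TGANTCA these shares were 12, 10 and 7.81%, and for the interferon element, searched as GAAA repeated after a gap of 2 bases, 0, 1.67 and 3.44%. The AP-1 matches among the inducible genes were in D330050G23Rik, Gm12589 and Gm14005. A match is a run of letters and was not tested as a binding site.

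Other responses followed the same direction in both shRNA states. Dubr, a lincRNA known from differentiating muscle cells, had 196, 738, 421 and 747 reads, was 3.89-fold (3.31 to 4.57) and 2.15-fold (1.91 to 2.43) higher after Pam3Cys4, and rose in edgeR's quasi-likelihood test (log2 1.52, adjusted p 0.0188). The 2 stimulated libraries had nearly the same level, 14.6 and 13.6 CPM, and the unstimulated level was 3.76 CPM without and 6.32 CPM with shRNA. With library totals the ratio in the shRNA cells was 1.97. G530011O06Rik, which overlaps Mid1, had 302, 681, 252 and 528 reads and rose as well (log2 1.28, edgeR quasi-likelihood adjusted p 0.0115). Its ratios were 2.33-fold (2.03 to 2.67) without and 2.54-fold (2.18 to 2.97) with shRNA, and Mid1 was 1.7-fold and 2.4-fold higher. Gm15832, which RefSeq places within the coding gene Rnf149, had 54, 249, 111 and 302 reads and was 4.76-fold (3.53 to 6.51) and 3.3-fold (2.65 to 4.14) higher, beside 2.75-fold and 1.98-fold for Rnf149. A430093F15Rik, near the T and B cell surface gene Cd5, had 27, 166, 19 and 44 reads and was 6.34-fold (4.21 to 9.92) and 2.81-fold (1.61 to 5.1) higher. Gm12404 (13, 54, 36 and 61 reads) and Gm11707 (13, 78, 7 and 24 reads) were also higher in both states, from low counts.

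A response of 2-fold in 1 shRNA state only did not show that the states differed, and the difference was measured separately below. Zswim6, listed by RefSeq as coding, had 2880, 5911, 2822 and 3480 reads and was 2.12-fold higher without shRNA (2.03 to 2.22) and 1.5-fold with shRNA (1.42 to 1.57). With library totals the first was 1.87. 4930430E12Rik, near Sdcbp, had 325, 638, 592 and 554 reads and was 2.03-fold higher without shRNA (1.77 to 2.32), a ratio of 1.79 with library totals, and 1.14-fold with shRNA (1.01 to 1.28). BC051226, a gene that starts beside the apoptosis and transcription regulator Daxx, had 72, 57, 171 and 311 reads. It was 2.21-fold higher after Pam3Cys4 with shRNA (1.83 to 2.68) and 1.22-fold lower without (0.853 to 1.76), while Daxx (1657, 2952, 6201 and 14310 reads) was higher in both.

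Among genes lower after Pam3Cys4, Gm15513 lies in an intron of Zfyve28 and had 82, 5, 76 and 12 reads. It was 15.9-fold (6.54 to 50.2) and 5.22-fold (2.82 to 10.5) lower and fell in edgeR's quasi-likelihood test (log2 -3.05, adjusted p 0.0162). Only its unstimulated libraries met the level filter of the test, so the p-value is no separate support. Zfyve28, a regulator of growth factor receptor traffic, had 441, 38, 1029 and 237 reads, and reads of that intron and of the lncRNA cannot be told apart. Gm16295, beside the phosphatase gene Ctdspl, had 161, 40, 29 and 6 reads and was 3.9-fold (2.74 to 5.66) and 3.98-fold (1.62 to 11.7) lower. Ctdspl, with 1446, 454, 409 and 104 reads, had the same order of libraries. Gm13391 (14, 2, 95 and 32 reads) was 6.78-fold (1.56 to 61.5) and 2.45-fold (1.62 to 3.77) lower. Of the genes with high levels, Ifi30 had 16522, 9677, 17904 and 9192 reads and fell (log2 -0.7, edgeR quasi-likelihood adjusted p 0.017), 1.65-fold without and 1.6-fold with shRNA.

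**Figure D3:**
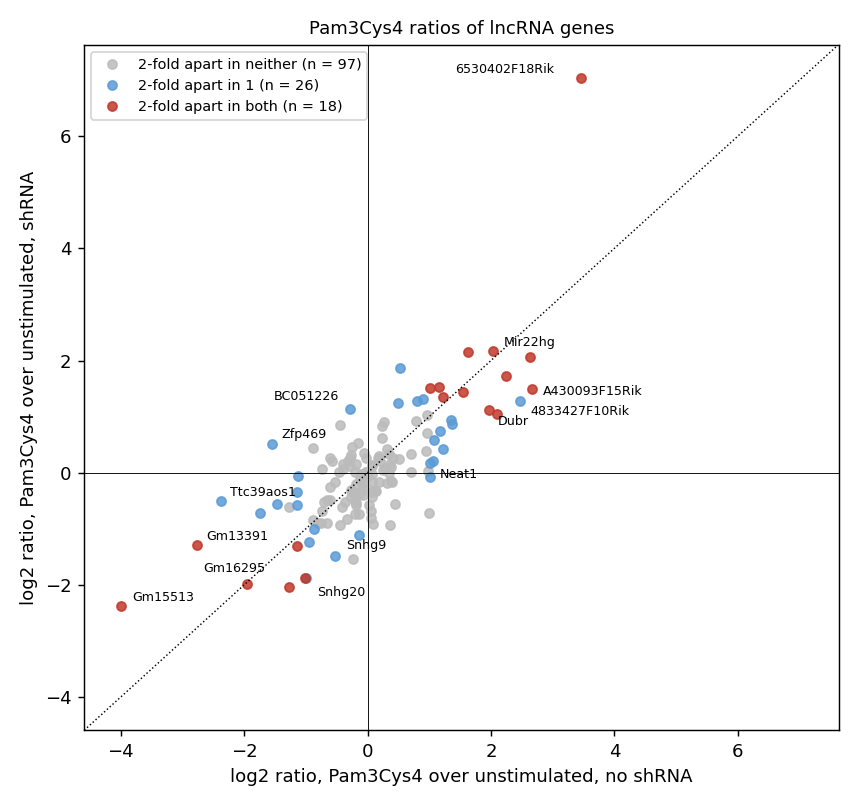
Log2 ratio of Pam3Cys4 over unstimulated without shRNA (x axis) and with shRNA (y axis) for the 141 lncRNA genes with both ratios. Points are genes, red where at least 2-fold apart in both states (18), blue in 1 state (26) and grey in neither (97), and the dotted line marks equal ratios. No red or blue gene is 2-fold apart in opposite directions, and 6530402F18Rik stands alone at the upper right.

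In the additive test, with 118 of the lncRNA genes at 1 CPM or more in at least 2 libraries, 10 rose and 8 fell with stimulation at an adjusted p under 0.05 by edgeR's quasi-likelihood test. With library totals 10 rose and 16 fell, and without the genes that RefSeq lists as coding 8 rose and 5 fell. With TMM factors and all 118 genes, the 18 that passed were 15.3% of those tested. Of all 11521 genes tested 22.5% passed (11.7% rose and 10.8% fell). The model takes the shRNA state as a repeat, so it covers no spread between separately prepared cultures. Its level filter could be met by the stimulated or by the unstimulated libraries alone. The counts include such genes, Gm15513 among them, and are therefore no separate support for a response.

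Host genes of small nucleolar RNAs make spliced transcripts whose introns hold the guides of ribosomal RNA modification, and many are known to be translated without a stable product and decayed quickly. Of 24 such genes on a list, 10 had a row of lncRNA type and 9 passed the threshold. None was at least 2-fold apart after Pam3Cys4 without shRNA, and 2 were lower with shRNA, Snhg9 and Snhg20, which were also the 2 of 9 that fell in edgeR's quasi-likelihood test. Over all genes 8.25% were higher and 7.77% lower without shRNA, and 7.25% and 4.96% with it, so 0 to 2 of 9 is no result about the list. The median log2 ratio of the 9 was -0.10 without and -0.07 with shRNA after Pam3Cys4, beside 0.00 and 0.01 over all genes. For shRNA over no shRNA it was 0.26 and 0.30, beside 0.02 and 0.04. Snhg9, which overlaps the ribosomal protein gene Rps2, had 947, 637, 2908 and 853 reads. It was 1.44-fold lower after Pam3Cys4 without shRNA (1.3 to 1.6) and 2.81-fold with shRNA (2.6 to 3.04), and fell in the test (log2 -1.01, edgeR quasi-likelihood adjusted p 0.0488). Its unstimulated library with shRNA stood apart from the other 3. Rps2 had between 586 and 645 reads before scaling, and after scaling 0.83 and 0.845 times its level without shRNA. Snhg20 had 398, 193, 539 and 121 reads and fell (log2 -1.43, edgeR quasi-likelihood adjusted p 0.026). Its ratio was 0.5 without shRNA, just short of the threshold (0.419 to 0.596), and it was 3.67-fold lower with shRNA (3.01 to 4.51). With DESeq2 size factors the first ratio was 0.497 and counted as 2-fold lower.

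The other host genes had ratios within 2-fold. Gas5, known for a stem that mimics the glucocorticoid receptor's DNA element, had 1784, 1989, 2008 and 1919 reads and ratios of 1.15 (1.08 to 1.23) and 1.16 (1.09 to 1.24) after Pam3Cys4. Zfas1 had 981, 840, 1343 and 1229 reads. Its overlapping neighbour Znfx1, an RNA helicase gene of antiviral defence, had 5704, 7758, 35039 and 53300 reads and was 4.81-fold and 6.32-fold higher with shRNA, against 1.07-fold (0.986 to 1.16) and 1.35-fold (1.23 to 1.47) for Zfas1. Snhg17 (741, 892, 1154 and 1271 reads), Snhg15 (862, 762, 1316 and 1033), Snhg12 (284, 256, 412 and 305) and 1810032O08Rik (284, 270, 510 and 423), which RefSeq names Snhg16, stayed within 2-fold in all 4 comparisons, and so did Epb41l4aos (270, 278, 546 and 239).

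MicroRNA host genes were represented by 3 of 14 listed genes. Their mature microRNAs were not measured, since the libraries were of mRNA, but the sequences below show what the hosts encode. They are RefSeq mature sequences on GRCm38.p6, with the seed, bases 2 to 8 that pair with targets, in capitals. The first pair belongs to Mir22hg, the second to Mir142hg and the rest to Mir17hg.
miR-22-5p: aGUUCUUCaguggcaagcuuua
miR-22-3p: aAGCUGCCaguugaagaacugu
miR-142a-5p: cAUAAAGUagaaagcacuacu
miR-142a-3p: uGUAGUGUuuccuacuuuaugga
miR-17-5p: cAAAGUGCuuacagugcagguag
miR-20a-5p: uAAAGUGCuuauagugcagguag
miR-18a-5p: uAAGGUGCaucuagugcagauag
miR-19a-3p: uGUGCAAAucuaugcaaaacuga
miR-19b-3p: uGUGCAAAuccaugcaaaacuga
miR-92a-3p: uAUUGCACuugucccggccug
In the Mir17hg cluster, miR-17-5p and miR-20a-5p share the seed AAAGUGC, and miR-19a-3p and miR-19b-3p share GUGCAAA. Mir22hg (ENSMUSG00000085148) had 92, 363, 57 and 212 reads and rose with stimulation (log2 2.09, edgeR quasi-likelihood adjusted p 0.00703). The Pam3Cys4 ratio was 4.07 without shRNA (3.23 to 5.18) and 4.51 with shRNA (3.36 to 6.16), with both stimulated libraries above both unstimulated ones. It was the 1 member of this list that was at least 2-fold apart. Of all genes, 8.25% were higher after Pam3Cys4 without shRNA and 7.25% with it, and 1 of 3 is no result about the list. Mir142hg, the host of a microRNA of blood cells, had 77, 146, 143 and 191 reads, 1.96-fold (1.47 to 2.61) and 1.62-fold (1.3 to 2.03) higher, and did not pass the test (edgeR quasi-likelihood adjusted p 0.0627). Mir17hg, the host of a cluster known to promote cell growth, had 199, 139, 174 and 145 reads, with Pam3Cys4 ratios of 0.721 without shRNA (0.576 to 0.9) and 1.01 with it (0.806 to 1.27).

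Of 18 lncRNA names on a list of innate immune responses, 4 passed the threshold, and their values went in different directions. Gm14005, which RefSeq names Morrbid and which is known to control myeloid cell lifespan through its neighbour Bcl2l11, the gene of the death factor Bim, had 80, 175, 87 and 120 reads. It was 2.26-fold higher after Pam3Cys4 without shRNA (1.72 to 2.98; ratio 1.99 with library totals) and 1.67-fold with shRNA (1.26 to 2.23), but did not pass the test (edgeR quasi-likelihood adjusted p 0.0535). Bcl2l11 had 1409, 2748, 3477 and 4922 reads, 2.01-fold and 1.72-fold higher. Ttc39aos1, known as lincRNA-EPS, a lncRNA that holds back immune genes in resting macrophages, had 43, 8, 83 and 48 reads. It was 5.21-fold lower after Pam3Cys4 without shRNA (2.42 to 12.8) and 1.42-fold lower with shRNA (0.987 to 2.08). Its neighbour Ttc39a, with 191, 22, 746 and 168 reads, was lowest in the same library. AW112010, known from activated macrophages and reported to be translated despite its noncoding label, had 0, 2, 9 and 84 reads. With shRNA it was 11.3-fold higher after Pam3Cys4 (5.69 to 25.6), and after Pam3Cys4 it was 38.7-fold higher with shRNA than without (10.4 to 324). Only 1 of its 4 libraries held more than 9 reads. Dnmt3aos, antisense to the DNA methyltransferase gene Dnmt3a, had 110, 61, 245 and 108 reads, 1.75-fold (1.27 to 2.43) and 1.87-fold (1.48 to 2.37) lower after Pam3Cys4, beside 18116, 10302, 29091 and 18294 for Dnmt3a.

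Of other lncRNAs with described functions, none of the 8 that passed the level threshold was at least 2-fold apart in any of the 4 comparisons, and none passed edgeR's quasi-likelihood test for stimulation or shRNA. Of all genes, 4.96 to 10.2% were apart in a single comparison and direction, and 22.5% and 22.9% of those tested passed for stimulation and shRNA. The share of all genes apart in none of the 4 comparisons was not computed, so none of 8 is given as a description. Tug1, a widely expressed nuclear and cytoplasmic lncRNA, had 2182, 2069, 2430 and 2412 reads, or 41.9, 41, 36.5 and 43.9 CPM. 1700020I14Rik, the mouse Oip5os1 or Cyrano RNA, known to destroy a microRNA, had 1571, 1436, 1492 and 1017 reads, and 1.35-fold (1.25 to 1.45) and 1.53-fold (1.41 to 1.66) lower levels with shRNA (edgeR quasi-likelihood adjusted p 0.0529). Trp53cor1, the p53-induced lincRNA-p21 beside Cdkn1a, had 66, 42, 85 and 59 reads. Hotairm1, a myeloid lncRNA of the HoxA cluster, had 70, 58, 56 and 36 reads, Crnde 57, 58, 85 and 52, and 4933439C10Rik 254, 148, 274 and 235. Ftx, the 1 gene of the X inactivation centre that passed, had 107, 97, 152 and 123 reads, with all 4 ratios within 1.17-fold. No imprinted lncRNA passed: H19 had 1, 1, 0 and 0 reads, Meg3 none and Airn 1, 2, 41 and 28.

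At the 1 CPM threshold, more lncRNA genes were lower than higher with shRNA. Hectd2os, B930095G15Rik, 4833427F10Rik and Gm12655 were nearly absent from the shRNA libraries, and Rab10os, the most abundant of the lower genes by reads, was more than 3-fold lower in both states. In unstimulated cells 29 of the 145 were at least 2-fold lower with shRNA (20%, against 7.28% of all genes) and 10 higher (6.9%, against 8.22%). After Pam3Cys4, 25 were lower (17.2%, against 8.12%) and 9 higher (6.21%, against 10.2%). Many of the lower genes passed the threshold through the libraries without shRNA. Of the 93 genes with 1 CPM or more in both unstimulated libraries 7 were lower and 4 higher, and of the 88 with that level in both Pam3Cys4 libraries 3 were lower and 3 higher, so the excess of lower genes after Pam3Cys4 was absent there. The median log2 ratio of the 145 was -0.18 and -0.27, beside 0.02 and 0.04 for all genes. Of the 113 under 10 CPM, 23% were lower and 7.96% higher in unstimulated cells, beside 16.3% and 14% of the 2250 coding genes of like level. After Pam3Cys4 the shares were 20.4% and 7.96%, beside 16.5% and 18%. Of the lower genes 19 were so in both stimulation states, 65.5% of the 29 and 76% of the 25, and of the higher genes 5, 50% of the 10 and 55.6% of the 9. Over all 145 genes the log2 ratios of the 2 states had a Pearson coefficient of 0.87 and a Spearman coefficient of 0.77, as a description over points that share depth and scaling. In edgeR's quasi-likelihood test 14 of 118 fell and 7 rose with shRNA at an adjusted p under 0.05, 17.8% beside 22.9% of all genes tested (10.1% fell and 12.8% rose). With library totals 22 fell and 7 rose, and without the genes that RefSeq lists as coding 14 fell and 4 rose. The level filter of the test, 1 CPM in at least 2 libraries, could be met by the libraries without shRNA alone. These counts are therefore no separate support for an excess of lower genes.

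Several of the lower genes were at or near 0 in both libraries with shRNA. Hectd2os (ENSMUSG00000087579), antisense to the ubiquitin ligase gene Hectd2, had 323, 531, 1 and 0 reads. It was 413-fold lower with shRNA in unstimulated cells (73.6 to 16357, from 1 read) and at least 192-fold lower after Pam3Cys4, taking 3 reads as the floor for the library with 0, and fell in edgeR's quasi-likelihood test (adjusted p 0.000586). Hectd2 itself had 28, 67, 0 and 0 reads. B930095G15Rik, in an intron of Farp1, a gene of a cytoskeletal exchange factor, had 69, 88, 0 and 1 reads and fell (edgeR quasi-likelihood adjusted p 0.00208). The unstimulated level was at least 29.4-fold lower, and the level after Pam3Cys4 95.6-fold lower (16.7 to 3819). Farp1 had 3353, 2940, 4 and 9 reads, so here the coding gene and the lncRNA in its intron were both nearly absent from the shRNA libraries. Hectd2os and B930095G15Rik met the level filter of the test only through the libraries without shRNA, where they were high. Their adjusted p-values are therefore no separate support for the difference.

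4833427F10Rik, described above, had 2 and 4 reads with shRNA. Without stimulation it was 32-fold lower (8.4 to 271) and 72.8-fold lower after Pam3Cys4 (28.1 to 269), and fell (log2 -5.77, edgeR quasi-likelihood adjusted p 0.00129), while Ier3 had 0.468 and 0.342 times its level without shRNA. The lincRNA too met the level filter of the test only through the libraries without shRNA, so the p-value is no separate support. Gm12655, a processed transcript near Caap1, had 102, 201, 9 and 7 reads, 14.5-fold (7.34 to 32.6) and 31.2-fold (14.9 to 78.6) lower. Caap1, a regulator of apoptosis, had 406, 489, 476 and 387 reads and showed no such difference. D330050G23Rik (69, 96, 4 and 12 reads), Gm12589 (44, 131, 3 and 11), 5031425F14Rik (104, 86, 14 and 4) and 2900041M22Rik (71, 30, 3 and 2) had the same form, with both libraries without shRNA above both libraries with it. None of these 4 overlaps a coding gene. Prex1, the coding gene nearest to 5031425F14Rik and an activator of Rac in leukocytes, had 16963, 18237, 27563 and 27862 reads, higher with shRNA where the lncRNA was lower.

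Rab10os (ENSMUSG00000079179) was the abundant lncRNA among the lower ones. It is antisense to Rab10, the gene of a GTPase of vesicle traffic, and had 4622, 4176, 1903 and 1235 reads, or 88.7, 82.7, 28.6 and 22.5 CPM. Both libraries without shRNA lay above 80 CPM and both with it under 30 CPM. It was 3.1-fold lower in unstimulated cells (2.94 to 3.28) and 3.67-fold lower after Pam3Cys4 (3.45 to 3.92), and fell (log2 -1.76, edgeR quasi-likelihood adjusted p 0.00144). Rab10 had 5720, 8191, 5852 and 8055 reads, at 0.8 and 0.905 times its level without shRNA. 2610203C22Rik, at an exon of Vxn, had 252, 190, 110 and 63 reads and fell (log2 -1.63, edgeR quasi-likelihood adjusted p 0.00851). F730043M19Rik, whose start lies beside that of Atxn7l1, had 226, 167, 60 and 52 reads and was 4.81-fold (3.61 to 6.51) and 3.49-fold (2.54 to 4.86) lower, while Atxn7l1 was 1.13-fold and 1.16-fold higher. Mir22hg was 2.06-fold lower in unstimulated cells (1.47 to 2.92) and 1.86-fold after Pam3Cys4 (1.57 to 2.21), and fell with shRNA (log2 -0.96, edgeR quasi-likelihood adjusted p 0.0352).

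The higher genes were fewer. Gm13012, antisense to Ece1, the gene of endothelin-converting enzyme, had 85, 212, 372 and 587 reads, or 1.63, 4.2, 5.58 and 10.7 CPM. It was 3.42-fold higher with shRNA in unstimulated cells (2.7 to 4.39) and 2.55-fold after Pam3Cys4 (2.17 to 3), and rose with both factors in edgeR's quasi-likelihood test (shRNA log2 1.55, adjusted p 0.00815; stimulation log2 1.13, adjusted p 0.0243). Ece1 was 1.58-fold and 1.53-fold higher with shRNA. Zfp469, a zinc finger gene that RefSeq lists as coding, had 18, 6, 217 and 256 reads, 9.43-fold (5.83 to 16.2) and 39.3-fold (17.8 to 108) higher, and rose (log2 4.06, edgeR quasi-likelihood adjusted p 0.00594). It met the level filter of the test only through the libraries with shRNA, so the p-value is no separate support. Rptoros, antisense to the mTOR partner gene Rptor, had 5, 2, 89 and 48 reads, 13.9-fold (5.75 to 43.9) and 22.1-fold (5.79 to 188) higher, while Rptor was at 0.602 and 0.731 times its level without shRNA. BC051226 was 1.86-fold (1.4 to 2.48) and 5.02-fold (3.78 to 6.78) higher, beside 2.93-fold and 4.46-fold for Daxx. Malat1 rose with shRNA (log2 0.67, edgeR quasi-likelihood adjusted p 0.0379), but by 1.88-fold without stimulation and 1.35-fold after it (1.32 to 1.38), under the 2-fold threshold. Snhg9 was 2.4-fold higher in unstimulated cells (2.23 to 2.59) and 1.23-fold after Pam3Cys4 (1.11 to 1.37), and did not pass the test for shRNA (edgeR quasi-likelihood adjusted p 0.0872).

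**Figure D4:**
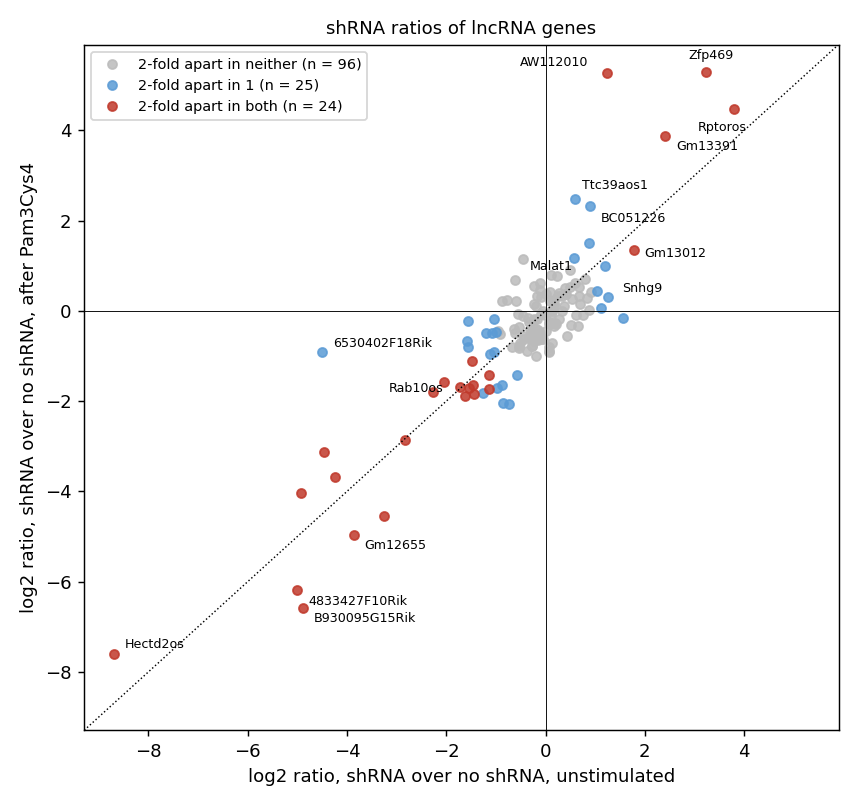
Log2 ratio of shRNA over no shRNA in unstimulated cells (x axis) and after Pam3Cys4 (y axis) for all 145 lncRNA genes, with 0 reads set to a floor of 3. Points are genes, red where at least 2-fold apart in both stimulation states (24), blue in 1 state (25) and grey in neither (96), and the dotted line marks equal ratios. The lower left holds more genes and reaches farther than the upper right, with Hectd2os at the end.

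For 127 lncRNA genes with at least 10 reads in each library, the Pam3Cys4 ratio with shRNA was set over the one without. It was at least 2-fold larger for 4 (3.15%, against 2.77% of 11537 genes) and at least 2-fold smaller for 4 (3.15%, against 2.22%), close to the background, with a median log2 of -0.13 beside 0.02. The 4 larger were BC051226 (2.7, 1.82 to 4.01), Gm16201 (2.53, 1.78 to 3.59), Firre (2.46, 1.48 to 4.11), a lncRNA of nuclear organisation, and 4921531C22Rik (2.12, 1.2 to 3.75). Firre had 65, 46, 54 and 80 reads, a level 1.37-fold lower after Pam3Cys4 without shRNA (0.924 to 2.04) and 1.8-fold higher with it (1.26 to 2.59). The 4 smaller were Gm16104 (0.306, 0.169 to 0.556), 0610009L18Rik (0.402, 0.209 to 0.774), A430093F15Rik (0.443, 0.226 to 0.87) and Gm12404 (0.48, 0.231 to 0.998), each with under 30 reads in at least 1 library. Neat1 had a ratio of ratios of 0.553, 1.81-fold smaller with shRNA (1.75 to 1.87), within the 2-fold limit. Genes with under 10 reads in a library could not enter this comparison. Among them were 6530402F18Rik, with 3 reads in the unstimulated shRNA library, and 4833427F10Rik, with 2 and 4 reads in the shRNA libraries.

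Because many lncRNA genes lie on or beside coding genes, each was set beside the coding gene it overlaps or, failing that, the nearest one in the annotation, and 124 of these neighbours were at 1 CPM or more. For the 72 that overlap their neighbour, reads of the pair cannot be told apart, so reads of one gene may have been counted for the other. Reads that HTSeq found ambiguous between genes, 1.68 to 1.92% of all totals, were counted for neither. A nearest gene could lie far off, such as Ndufaf2 at 112651 bases from Zswim6. The shares below were not split by overlap or distance, and no share was computed for neighbours of genes that were not called. Of the 21 lncRNA genes higher after Pam3Cys4 without shRNA, 17 had such a neighbour and 7 of these neighbours were themselves at least 2-fold higher (41.2%, beside 8.25% of all genes). Of the 14 lower ones it was 5 of 13 (38.5%, beside 7.77%). Among the 7 higher neighbours were Rnf149, within which RefSeq places Gm15832, and Ntng2, which 6530402F18Rik overlaps. With shRNA the counts were 4 of 12 (33.3%, beside 7.25%) and 2 of 10 (20%, beside 4.96%). For the lower genes of the shRNA comparison, 6 of 25 neighbours were lower too in unstimulated cells (24%, beside 7.28%) and 2 were higher, and after Pam3Cys4 5 of 22 were lower (22.7%, beside 8.12%) and none higher. The higher genes of that comparison had 1 of 8 (12.5%, near the 8.22% of all genes) and 3 of 7 (42.9%, beside 10.2%) neighbours in the same direction. Junos, antisense to the transcription factor gene Jun, had 51, 51, 33 and 17 reads and a ratio of 1.03 after Pam3Cys4 without shRNA (0.686 to 1.55), while Jun (7900, 13611, 7352 and 9336 reads) was 1.78-fold higher.

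**Figure D5:**
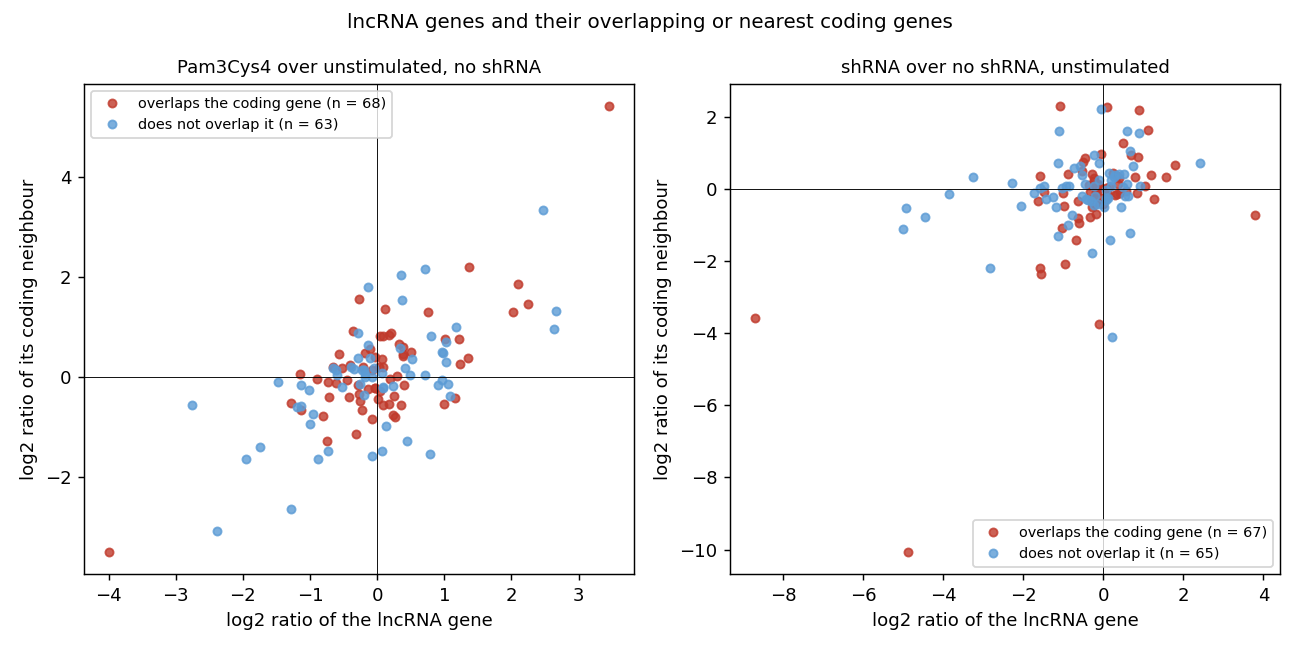
Log2 ratio of each lncRNA gene (x axis) and of its overlapping or nearest coding gene (y axis), for Pam3Cys4 over unstimulated without shRNA (left) and shRNA over no shRNA in unstimulated cells (right). Red points overlap the coding gene (68 left, 67 right) and blue points do not (63 and 65). On the left the points spread from lower left to upper right, from Gm15513 with Zfyve28 to 6530402F18Rik with Ntng2, and on the right Hectd2os with Hectd2 and B930095G15Rik with Farp1 are the points farthest below 0.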

How the data were processed

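Per the labels' protocols, an Illumina kit for mRNA was used and reads were 50 bp long. The tools were CASAVA 1.8, TopHat and HTSeq on NCBIM37, per the submitters' processing notes. Not given in the sources used here are other versions, the annotation and the use of strand in counting. Whole-number read counts per gene were deposited by the authors. Alignments to several places made up 27 to 29.9% of all totals, so genes with close copies are undercounted.

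Of 37681 Ensembl IDs, 32642 matched GENCODE vM21, which gave types, exon lengths and overlaps. It is on another build than the counts, so none of its coordinates are printed. The 5039 unmatched IDs, 223 of them at 1 CPM or more, could not be members.

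TMM factors of edgeR 4.0.16 (1.1, 0.972, 1.01 and 0.924; R 4.3.3) scaled the libraries. Ratios had exact conditional binomial 95% intervals, with a floor of 3 counts for a 0 and no ratio where both counts were at most 3. Ratios of ratios had delta-method intervals. The only test was edgeR's quasi-likelihood test with shRNA and stimulation as additive terms, adjusted by Benjamini-Hochberg at 0.05 over 11521 genes. Its degrees of freedom were 1 residual and 4.05 prior, and its common biological coefficient of variation was 0.143. Scripts were tested on simulated data. RefSeq promoters were found for 96 of the 145 genes.

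Members, lists, rules and tests were chosen with earlier results of these data known. Named were list members, the 12 genes highest per kb, per comparison up to 8 higher and 8 lower genes with at least 5 CPM ranked by the interval bound nearest to 1, the 4 genes on either side of the threshold, genes with at most 3 counts in both libraries of one shRNA state, and their neighbours. Further genes were named with their values in view. The targeted lncRNA is not reported here. Alternatives were library totals, DESeq2 1.42.0 size factors or Wald test, other filters, a 3-fold threshold, leaving out genes that overlap a coding gene and, added after seeing the data, leaving out genes that RefSeq lists as coding.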

Additional observations from a re-analysis of the deposited data

How the results depend on the processing

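No paired analysis was possible because each group had 1 library and the labels give no replicate numbers. For the same reason no library could be left out. Values below are counts of lncRNA genes, higher then lower. Among the 49 genes with at least 5 CPM in 1 or more libraries they were 10 and 0 for Pam3Cys4 without shRNA, 6 and 2 with shRNA, 2 and 6 for shRNA in unstimulated cells, and 2 and 4 after Pam3Cys4. Among genes with at least 1 CPM in both libraries compared (108, 83, 93 and 88) they were 13 and 2, 5 and 2, 4 and 7, and 3 and 3. With a 3-fold threshold they were 9 and 5, 7 and 5, 4 and 14, and 6 and 21. Among the 73 genes that overlap no coding gene they were 11 and 10, 11 and 7, 2 and 18, and 4 and 19. By construction, these filters and the stricter threshold can only lower the counts. Library totals gave 17 lower genes for Pam3Cys4 with shRNA and a median log2 ratio of all genes of -0.18, -0.12, -0.10 and -0.03 in the 4 comparisons, beside 0.00, 0.01, 0.02 and 0.04 with TMM factors. They brought the share of higher among called genes from 60 to 42.4% for Pam3Cys4 without shRNA and from 62.1 to 48.5% with shRNA.

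With at least 30 counts in each library, 0 ratios of ratios were at least 2-fold smaller with shRNA and 4 were larger. In edgeR's additive test, library totals gave 16 that fell with stimulation and 22 that fell with shRNA. Leaving out the 14 genes that RefSeq lists as coding left 5 that fell with stimulation and 4 that rose with shRNA. DESeq2's Wald test gave 9 that rose and 9 that fell with stimulation, and 7 and 15 with shRNA. Of the ratios of 48 named genes under library totals or DESeq2 size factors, 365 kept their side of the threshold, 5 no longer passed, 6 newly passed and 0 changed direction. Further genes named above, among them A430093F15Rik, Gm12655, Gm15513, Gm16295, Rptoros and Zfp469, were not part of this check. Depth limits the low genes most: with 1 to 3 reads in a library the interval of a ratio spans an order of magnitude or more.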
